A study of Homo sapiens with 6 samples.

Results

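Mitotic kinesins are microtubule motors that cells switch on for division. They use ATP to slide, shorten, cap or bundle the microtubules of the spindle, and in anaphase they build the central spindle that guides cytokinesis. Their mRNAs are made mainly in G2 and M phase, so in a growing neuroblastoma line they mark the dividing share of the culture, and KIF11 in particular is a long-studied drug target. The mRNAs of 10 such motors (KIF2C, KIF4A, KIF11, KIF14, KIF15, KIF18A, KIF18B, KIF20A, KIF20B and KIF23) were read from a table of 23555 gene rows by symbol. Each of the 10 symbols had 1 row and all 10 were expressed enough to test.

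The cells were IMR-32, an established human neuroblastoma line with amplified MYCN, of genotype WT per the labels. They received PTC-028 at 25 nM, a compound used to inhibit the Polycomb protein BMI1, or its solvent DMSO, for 24 h, with 3 libraries in each group. Poly(A)-selected RNA was sequenced, and the deposited values are TPM, a relative abundance per transcript length that can be compared between genes. In each library 13580 to 14003 genes reached 1 TPM, and TPM keeps no read depth. The line carried markers of its lineage at unlike levels. HAND2, a transcription factor of sympathetic neuroblasts, lay between 521 and 544 TPM with PTC-028, against 484 to 522 TPM with DMSO. TH, of the same marker list, was at 9.58 to 11.8 TPM with PTC-028 and 8.97 to 13.8 TPM with DMSO. DBH was lower still, at 3.17 to 4.33 TPM with PTC-028 and 3.97 to 4.24 TPM with DMSO. The log2 fold change of DBH was -0.08. Of 13 neuroblastoma identity genes, 12 had a log2 fold change above 0, where the median over all genes tested was also above 0, at 0.03. Without overlap between the groups, 7 of the 13 were higher with PTC-028, against 13.4% of all genes tested. Of the 13, 1 passed the limma test, against 1.88% of all genes tested. It was GATA3, a transcription factor of the same lineage, named after its value was seen (log2 fold change 0.35, limma adjusted p = 0.0211). Its call was lost on leaving out any 1 of the PTC-028 libraries or the first DMSO library (adjusted p = 0.0731 to 0.0887), with no filter on low values (0.0522) and without a variance trend (0.097). The GATA3 call was also lost with the replicate number as a block (limma adjusted p = 0.115). The summed TPM of the 13 genes was 3389 to 3453 with PTC-028, above 3066 to 3169 with DMSO, and their part in the results on the motors was not tested. All 6 endothelial markers in the table were under 1 TPM in every library. So were 3 of 6 leukocyte, 4 of 7 fibroblast and 1 of 6 Schwann cell markers. Others of these lists were expressed. The fibroblast marker PDGFRA was at 18.0 to 22.7 TPM with PTC-028 and 20.7 to 24.0 TPM with DMSO. COL1A1 was at 14.4 to 19.6 TPM with PTC-028 and 14.5 to 18.4 TPM with DMSO, so both lay above TH. The leukocyte marker PTPRC was at 3.94 to 5.12 TPM with PTC-028 and 2.70 to 4.97 TPM with DMSO. The summed TPM of these 4 lists of other cell types overlapped between the groups.

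Promoter windows of the motors from RefSeq (GRCh38.p14) are shown because elements of 2 kinds, the CHR and the CCAAT box, are known from promoters of G2 and M phase genes. The stretches run from 100 bases before to 20 bases after the RefSeq start, 5′ to 3′ on the gene's strand. Capitals mark a CHR, searched as TTTGAA or TTCGAA, or a CCAAT box, searched as CCAAT, on both strands. The 4 shown are KIF20A, which passed the test of PTC-028 against DMSO, KIF18A, which had the next highest fold change, and KIF11 and KIF15, which had the lowest.
KIF20A, chr5:138179012-138179131, plus strand: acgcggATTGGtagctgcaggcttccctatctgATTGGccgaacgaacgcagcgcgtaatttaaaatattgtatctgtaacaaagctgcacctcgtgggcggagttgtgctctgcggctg
KIF18A, chr11:28108137-28108256, minus strand: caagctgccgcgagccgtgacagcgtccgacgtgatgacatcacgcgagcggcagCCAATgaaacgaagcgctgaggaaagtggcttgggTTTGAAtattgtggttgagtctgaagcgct
KIF11, chr10:92593030-92593149, plus strand: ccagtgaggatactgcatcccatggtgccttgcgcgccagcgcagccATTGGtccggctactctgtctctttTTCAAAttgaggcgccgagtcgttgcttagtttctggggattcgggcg
KIF15, chr3:44761694-44761813, plus strand: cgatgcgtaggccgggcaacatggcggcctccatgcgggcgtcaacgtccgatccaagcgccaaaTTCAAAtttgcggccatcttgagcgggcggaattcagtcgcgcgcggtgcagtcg

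In the full windows of 300 bases, 8 of the 10 motors held a CHR, against 16.4% of all 35116 promoters in the table. A CCAAT box was present in 8 of 10, against 34.6% of all promoters, and both in 7 of 10, against 6.38%. The KIF20A window held CCAAT boxes at 94 and 67 bases before the start, and neither TTTGAA nor TTCGAA on either strand. Other forms of a CHR were not searched, so a window without a match is not shown to lack the element. KIF11 and KIF18A each held one of both kinds, KIF15 held a CHR alone, and KIF2C held no match to the letters searched. A match of letters is a description and not evidence of binding.

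The comparison of PTC-028 with DMSO asked which of these mRNAs differ after 24 h with the compound. Whether BMI1 was inhibited in these cells was not tested. KIF20A was higher with PTC-028, and the other 9 motors did not pass the test. The 10 fold changes fell on both sides of 0, with 5 above and 5 below on the log2(TPM + 1) scale. They ranged from -0.24 for KIF15 to 0.35 for KIF20A around a median of 0.004, against a median of 0.03 over all 13836 genes tested. The threshold was a limma adjusted p under 0.05. By that rule 1 of 10 motors was called higher and 0 lower, against 0.867% of all genes tested called higher, 1.01% lower and 1.88% in either direction. At an unadjusted p under 0.05 the count was also 1 of 10, against 17.3% of all genes tested. The groups did not overlap for 3 motors, KIF4A, KIF18A and KIF20A, each higher with PTC-028, against 24% of all genes tested in either direction and 13.4% in that one. In bulk RNA a change in the share of cells that are dividing and a change in RNA per dividing cell cannot be told apart.

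**Figure D1:**
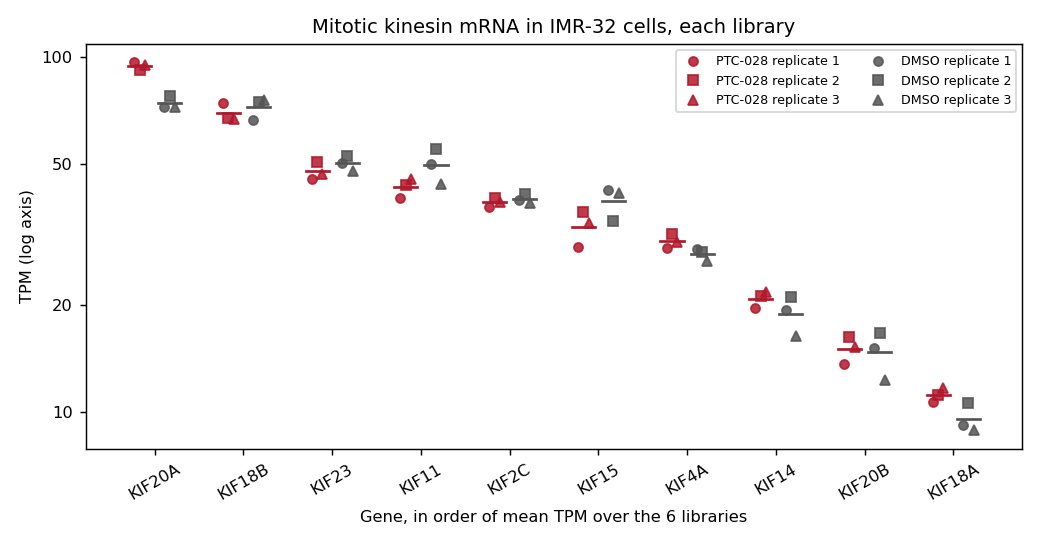
TPM of the 10 motors in each library on a log axis, genes in order of mean level, PTC-028 in red to the left of DMSO in grey; lines are group means and symbols replicate numbers. KIF20A shows a gap between the groups, with PTC-028 libraries from 92.0 to 96.8 TPM and DMSO libraries from 72.3 to 77.9 TPM.

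By level, the motors kept the same order of group means with PTC-028 and with DMSO. KIF20A was first with a mean of 84.4 TPM over the 6 libraries, followed by KIF18B at 71.1, KIF23 at 49.0, KIF11 at 46.4, KIF2C at 39.5, KIF15 at 36.4, KIF4A at 29.2, KIF14 at 19.9, KIF20B at 14.9 and KIF18A at 10.4 TPM. Some neighbours in this order were not separated in every library. KIF20A exceeded KIF18B in 5 of 6 libraries, KIF23 exceeded KIF11 in 5 of 6, and KIF2C exceeded KIF15 in 4 of 6. Each of the other neighbouring pairs had the same order in all 6 libraries. The motors sat between the 36.5th percentile of mean level among the genes tested, for KIF18A, and the 87.2nd, for KIF20A.

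The central spindle motors come first by role, since KIF20A is one of them. KIF20A, also called MKLP2, carries the chromosomal passenger complex from the chromosomes to the central spindle at anaphase. The gene (ENSG00000112984.11, chromosome 5, 138178719 to 138187715, plus strand, GRCh38) had 96.8, 92.0 and 94.9 TPM with PTC-028, against 72.3, 77.9 and 72.4 TPM with DMSO. Every PTC-028 library lay above every DMSO library. The group means were 94.6 ± 2.42 TPM with PTC-028 and 74.2 ± 3.21 TPM with DMSO (SD, n = 3 each), a rise of 27.4%. On the log2(TPM + 1) scale the fold change was 0.35 ± 0.06 (SE; limma adjusted p = 0.0252), with a 95% confidence interval of 0.22 to 0.47. Among all genes tested it had rank 140 by p-value. The direction held under each alternative that was run, with fold changes between 0.31 and 0.38, but the call was not kept under all of them. Leaving out DMSO replicate 1 gave an adjusted p of 0.117, and leaving out PTC-028 replicates 1, 2 and 3 in turn gave 0.109, 0.0911 and 0.101. In these refits fewer of all genes passed, at 76, 89, 74 and 99, against 260 with all libraries. With all libraries kept, KIF20A missed the threshold without a variance trend (adjusted p = 0.0887) and with the replicate number as a block (0.125). The adjusted p lay between 0.00178 and 0.125 over all alternatives.

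The ends of KIF20A overlap genes on the opposite strand, BRD8 by 268 bases and CDC23 by 68 bases, and whether the counting used strand is not given in the sources used here. BRD8, a bromodomain protein, had 73.1, 86.0 and 74.9 TPM with PTC-028, against 71.8, 80.5 and 63.1 TPM with DMSO, so the groups overlapped. CDC23, a subunit of the anaphase-promoting complex, had 34.97, 39.4 and 37.2 TPM with PTC-028, against 38.1, 41.7 and 37.6 TPM with DMSO, and these overlapped as well. Their fold changes of 0.12 (limma adjusted p = 0.572) and -0.07 (0.653) did not pass. The part of shared reads in the KIF20A result was not tested.

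KIF23, or MKLP1, is the motor of centralspindlin, the complex with RACGAP1 that bundles midzone microtubules. It had 45.5, 50.7 and 47.0 TPM with PTC-028, against 50.5, 52.6 and 47.8 TPM with DMSO, with overlapping groups. Its fold change of -0.08 ± 0.07 had a confidence interval of -0.23 to 0.08 (SE; limma adjusted p = 0.608). KIF20B, or MPP1, also acts in cytokinesis. Its values of 13.7, 16.3 and 15.3 TPM with PTC-028 lay within the spread of 15.2, 16.8 and 12.3 TPM with DMSO, where replicate 3 was low. The fold change of KIF20B was 0.04 ± 0.13 (SE; limma adjusted p = 0.903), with an interval of -0.25 to 0.33, and its sign was not stable. Leaving out DMSO replicate 3 made it -0.08, leaving out PTC-028 replicate 2 made it -0.01, and quantile normalisation made it -0.03.

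KIF20A and KIF20B share a name but belong to different branches of their family. The ratio of KIF20A to KIF20B in TPM, which does not depend on how a library was scaled, was 7.06, 5.65 and 6.20 with PTC-028 and 4.76, 4.65 and 5.88 with DMSO. DMSO replicate 3 lay above PTC-028 replicate 2, so the groups overlapped. The log2 ratio differed by 0.31, which an exact permutation test over the 6 libraries did not separate from the spread (2-sided p = 0.2, where the smallest possible p is 0.1).

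Another pair of motors works at the central spindle. KIF4A is a chromokinesin that PRC1 recruits to set the length of midzone microtubules. It had 29.03, 31.8 and 30.3 TPM with PTC-028, just above 28.9, 28.3 and 26.7 TPM with DMSO, and a fold change of 0.11 ± 0.07 (SE; limma adjusted p = 0.446) that missed the threshold. KIF4B, a near-identical retrocopy of KIF4A, was between 0.0228 and 0.0435 TPM with PTC-028 and at most 0.0192 TPM with DMSO, too low to test. KIF14, which brings citron kinase to the midbody, had 19.6, 21.3 and 21.8 TPM with PTC-028, against 19.4, 21.1 and 16.4 TPM with DMSO. The DMSO spread of KIF14 rested on a low replicate 3, and its fold change was 0.14 ± 0.10 (SE; limma adjusted p = 0.529).

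**Figure D2:**
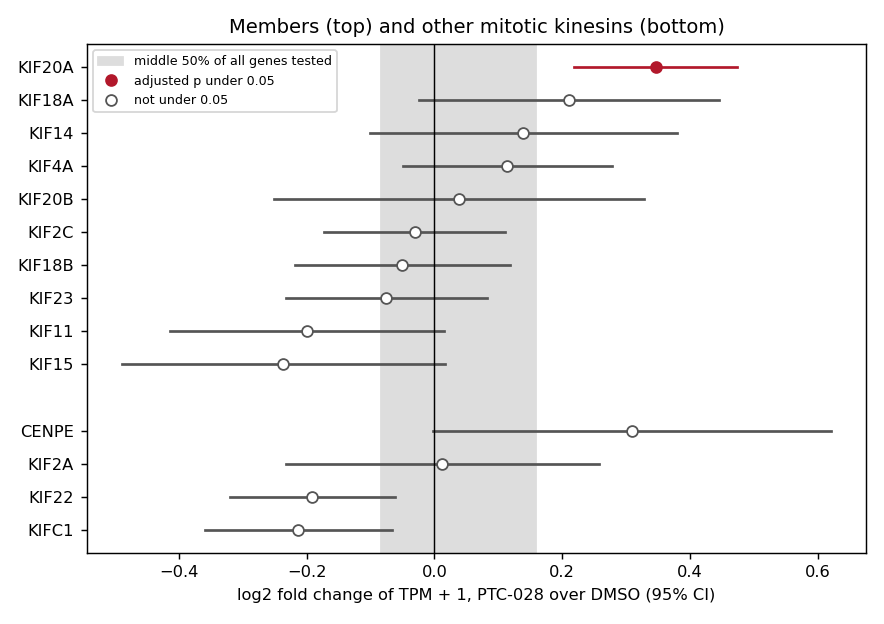
Fold changes of TPM + 1 on the log2 scale, PTC-028 over DMSO, with 95% confidence intervals, for the 10 motors and for 4 other mitotic kinesins; filled red marks an adjusted p under 0.05 and the grey band spans the middle 50% of all genes tested. Of the 14 genes drawn, KIF20A alone is filled, and KIF15 and KIF11 have the lowest values of the 10 motors.

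The motors that hold spindle poles apart had fold changes below 0 and did not pass. KIF11, or Eg5, slides antiparallel microtubules apart and is needed to form a bipolar spindle. It had 40.1, 43.7 and 45.3 TPM with PTC-028, against 50.1, 55.0 and 43.9 TPM with DMSO, where 1 DMSO library fell among the PTC-028 values. Its fold change was -0.20 ± 0.09 (SE; limma adjusted p = 0.316), with a confidence interval of -0.41 to 0.01. Over the alternatives it lay between -0.28 and -0.12, with adjusted p from 0.0513 to 0.575. KIF15, which can take over from KIF11 in keeping the spindle bipolar and is targeted by TPX2, had 29.2, 36.7 and 34.1 TPM with PTC-028, against 42.2, 34.6 and 41.5 TPM with DMSO. The groups of KIF15 overlapped through DMSO replicate 2. Its fold change of -0.24 ± 0.11 had a confidence interval of -0.49 to 0.02 (SE; limma adjusted p = 0.314). With library weights it passed as lower (-0.31, adjusted p = 0.0402, in a range of 0.0402 to 0.59 over the alternatives). TMEM42 shares 3802 bases of the KIF15 locus on the same strand and had a fold change of 0.21 that did not pass (limma adjusted p = 0.329).

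The motors that act on microtubule ends gave small or uncertain differences. KIF2C, or MCAK, shortens microtubules and corrects wrong attachments at kinetochores. It had 37.9, 40.3 and 39.1 TPM with PTC-028, against 39.7, 41.3 and 38.9 TPM with DMSO, so the groups overlapped. The fold change was -0.03 ± 0.06, with a confidence interval of -0.17 to 0.11 (SE; limma adjusted p = 0.832), or 0.887 to 1.08 as a linear ratio of TPM + 1. KIF18B, which restrains astral microtubules together with KIF2C, had 74.4, 67.7 and 67.2 TPM with PTC-028, against 66.4, 74.9 and 75.7 TPM with DMSO. Its groups overlapped, with a fold change of -0.05 ± 0.07 (SE; limma adjusted p = 0.763). KIF18A, which damps the movements of aligned chromosomes, had 10.7, 11.2 and 11.7 TPM with PTC-028, against 9.23, 10.6 and 8.89 TPM with DMSO. Its groups did not overlap, but by only a small gap between PTC-028 replicate 1 and DMSO replicate 2. The fold change of KIF18A was 0.21 ± 0.10 and did not pass (SE; limma adjusted p = 0.331), with an interval of -0.02 to 0.45.

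Libraries differed across many motors at once. PTC-028 replicate 1 was the lowest of its group for 8 of the 10 motors, while DMSO replicate 3 was the lowest of its group for 7 and DMSO replicate 2 the highest for 7. The summed TPM of the 10 motors was 397, 412 and 407 with PTC-028, against 394, 413 and 385 with DMSO. The sums overlapped, and so did those of the other 9 motors without KIF20A, at 300.2, 319.6 and 311.8 TPM with PTC-028 and 321.7, 335.2 and 312.2 TPM with DMSO.

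Within this sum the make-up shifted towards KIF20A. KIF20A supplied 24.4%, 22.4% and 23.3% of the summed TPM with PTC-028, against 18.4%, 18.9% and 18.8% with DMSO. Every PTC-028 share was above every DMSO share. KIF11 supplied 10.1%, 10.6% and 11.1% with PTC-028, against 12.7%, 13.3% and 11.4% with DMSO, lower in each library. The share of KIF18A was 2.77% ± 0.102 with PTC-028 and 2.41% ± 0.141 with DMSO (SD, n = 3 each), also without overlap. The shares of KIF2C and KIF23 were lower without overlap, at 9.65% ± 0.120 and 11.8% ± 0.469 with PTC-028, against 10.1% ± 0.0610 and 12.7% ± 0.204 with DMSO (SD, n = 3 each). The shares of KIF4A, KIF14, KIF15, KIF18B and KIF20B overlapped between the groups. That of KIF15 was 8.22% ± 0.789 with PTC-028 and 9.96% ± 1.37 with DMSO (SD, n = 3 each). Shares add to a fixed total, so a larger share of KIF20A lowers the others. Pairwise ratios avoid this. Chosen after their values were seen, and given with no test, the TPM ratio of KIF20A to KIF11 was 2.42, 2.11 and 2.09 with PTC-028 and 1.44, 1.42 and 1.65 with DMSO. The ratio of KIF18A to KIF11 was 0.268, 0.257 and 0.259 with PTC-028 and 0.184, 0.193 and 0.202 with DMSO, so both ratios were apart in all libraries. That of KIF20A to KIF23 was also apart, at 1.99 ± 0.159 with PTC-028 and 1.48 ± 0.0418 with DMSO (SD, n = 3 each). That of KIF15 to KIF11 overlapped, at 0.729, 0.841 and 0.751 with PTC-028 and 0.843, 0.628 and 0.944 with DMSO.

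**Figure D3:**
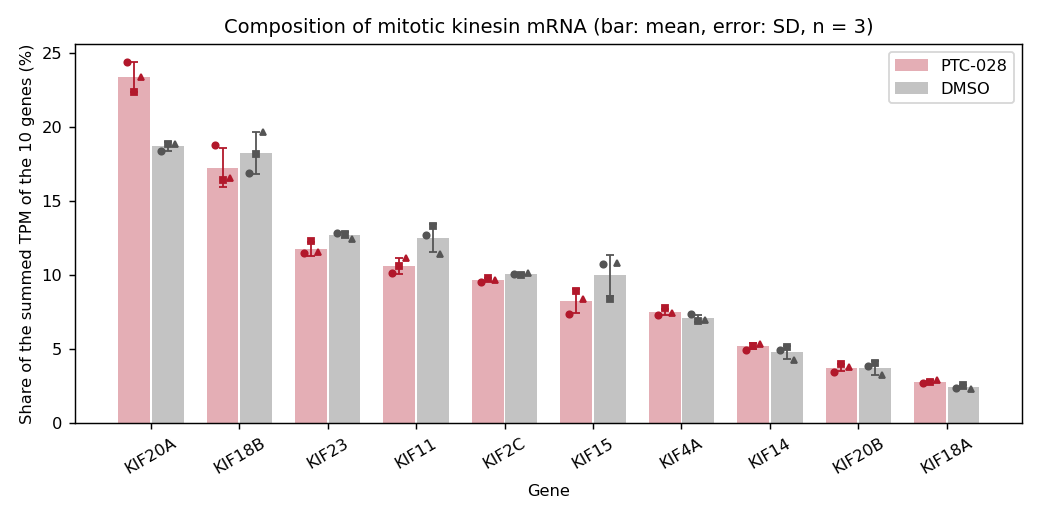
Share of each motor in the summed TPM of the 10 motors; bars are means, error bars SD over 3 libraries, points single libraries, PTC-028 in red to the left of DMSO in grey. The KIF20A bar is higher with PTC-028 (23.4% against 18.7%) and the KIF11 bar lower (10.6% against 12.5%).

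Profiles over the 6 libraries were compared by the root mean square difference of log2(TPM + 1) after subtracting each gene's mean, among 10749 genes with a mean TPM of at least 5. The genes nearest to KIF20A were BTN3A1 at 0.0229, ST6GAL1 at 0.0296 and GOLGA2P7 at 0.0316. GOLGA2P7, a pseudogene with near-identical copies whose reads may be divided, rose by 0.32 (limma adjusted p = 0.0195). BTN3A1, a butyrophilin, was at 0.35 (0.166) and ST6GAL1, a sialyltransferase, at 0.34 (0.0724), and neither passed. The motor nearest to KIF20A was KIF18A, at 0.0901 and position 308 in that order. KIF4A followed at position 1722, and KIF15 was the farthest motor at position 10024.

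Of 6 other kinesins with known roles in mitosis, 5 had rows and 4 were tested. By limma 0 of these 4 passed, and 2 had an unadjusted p under 0.05, against 17.3% of all genes tested. CENPE, the kinetochore motor that brings chromosomes to the spindle equator, had 19.9, 23.1 and 23.3 TPM with PTC-028, against 18.0, 20.9 and 14.5 TPM with DMSO. The groups of CENPE overlapped, and its fold change was 0.31 ± 0.13 (SE; limma adjusted p = 0.29). KIF22, a chromokinesin, had 111, 112 and 109 TPM with PTC-028, below 121, 124 and 135 TPM with DMSO, a fold change of -0.19 ± 0.06 that did not pass (SE; limma adjusted p = 0.147). KIFC1, a minus-end motor that clusters spindle poles, was split over a pair of alternative-haplotype rows. The larger row had 88.4, 91.4 and 90.0 TPM with PTC-028, against 102, 113 and 98.2 TPM with DMSO, and a fold change of -0.21 (limma adjusted p = 0.153). The other KIFC1 row was at 0.14 (0.744), and the sum of both was 122 ± 5.77 TPM with PTC-028 and 133.5 ± 1.65 TPM with DMSO (SD, n = 3 each). With library weights, where 2219 genes passed, KIF22 (-0.14, limma adjusted p = 0.0469) and the larger KIFC1 row (-0.19, 0.0239) passed as lower. KIF2A, a spindle pole depolymerase, was at 0.01 (limma adjusted p = 0.964), with a sign that turned without DMSO replicate 3 (-0.11), and KIF2B was not analysed here.

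**Figure D4:**
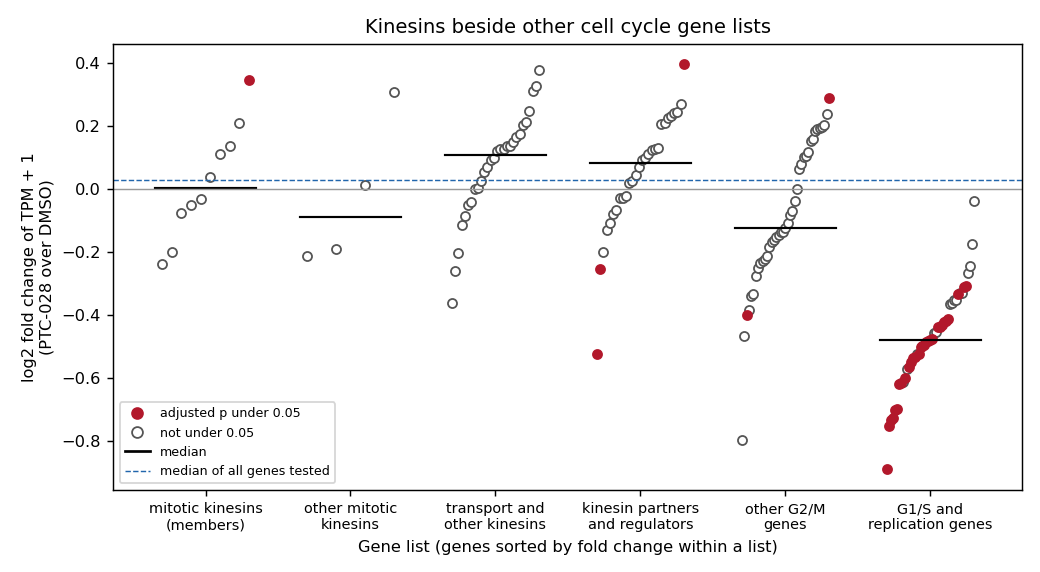
Fold changes of TPM + 1 on the log2 scale, PTC-028 over DMSO, for every tested gene of 6 lists; points are genes sorted within a list, filled red at an adjusted p under 0.05, black lines list medians and the dashed line the median of all genes tested. The motors straddle 0 with a median of 0.004, whereas the G1/S and replication genes all lie below 0 with a median of -0.48. The lists were chosen with earlier results of these data known.

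Proteins that recruit, regulate or work with these motors also went both ways. Of 28 tested partners and regulators, 1 rose and 2 fell, against 0.867% of all genes tested called higher and 1.01% lower. The other 25 missed the threshold, and the median was 0.08. PLK1, the kinase that KIF20A helps to place on the central spindle, rose by 0.40 ± 0.05 (SE; limma adjusted p = 0.0106). CDK1, which phosphorylates several of these motors and keeps KIF20A off the midzone before anaphase, fell by 0.52 ± 0.07 (SE; 0.0112). AURKB, the passenger kinase that KIF20A carries, fell by 0.25 ± 0.05 (SE; 0.0492), to 127 ± 3.66 TPM with PTC-028, against 151 ± 4.64 TPM with DMSO (SD, n = 3 each). Leaving out any 1 library ended the AURKB call (adjusted p 0.0712 to 0.173). Leaving out DMSO replicate 1 (0.0667), PTC-028 replicate 2 (0.0661) or PTC-028 replicate 3 (0.0588) ended that of PLK1, and leaving out PTC-028 replicate 3 (0.0504) that of CDK1. Without a variance trend PLK1 (limma adjusted p = 0.0588) and CDK1 (0.054) also missed the threshold. PLK1 missed it as well with the replicate number as a block (0.0612). The partners PRC1 at -0.03 (limma adjusted p = 0.822), RACGAP1 at 0.02 (0.922), CIT at 0.27 (0.174) and TPX2 at 0.11 (0.282) did not pass; these 4 were chosen after their values were seen.

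Beside these, 39 other tested G2 and M phase genes included 1 that rose and 1 that fell, against 0.867% and 1.01% of all genes tested. The other 37 missed the threshold, and the median was -0.12. CDC20, which switches on the ubiquitin ligase that starts anaphase, was higher by 0.29 (limma adjusted p = 0.0471), and leaving out any 1 library ended that call (adjusted p 0.0718 to 0.175). CKS1B, a small subunit of cyclin-dependent kinases, fell by 0.40 (limma adjusted p = 0.00561) and kept its call without each library in turn, but not without a variance trend (adjusted p = 0.057). By contrast, 30 of 45 tested genes of the G1/S transition and DNA replication fell, against 1.01% of all genes tested. None rose, against 0.867% of all genes tested, and the median of the list was -0.48. This list was chosen with earlier results of these data known. FEN1, TK1, CDC45 and TYMS had the smallest p, with fold changes of -0.70, -0.70, -0.75 and -0.44. The count of 30 was 14 without DMSO replicate 1 and 16, 15 and 18 without PTC-028 replicates 1, 2 and 3, and 16 without a variance trend. No motor lay as low as that median.

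Among 21 tested regulators of cell cycle genes, 1 rose and 4 fell, against 0.867% of all genes tested called higher and 1.01% lower. CDKN1A, which encodes the cyclin-dependent kinase inhibitor p21, rose by 1.89 ± 0.06 (SE; limma adjusted p = 1.4e-05). MYBL2, a partner of the MuvB complex that acts at CHR elements, fell by 0.44 (limma adjusted p = 0.00712), E2F1 by 0.59 (0.00749) and TFDP1, a dimer partner of E2F proteins, by 0.33 (0.0141). Leaving out DMSO replicate 1 or 1 of the PTC-028 libraries reduced the 4 that fell to 2, and TFDP1 then missed the threshold (adjusted p up to 0.0795). FOXM1, an activator of G2 and M phase genes, was at -0.11 (limma adjusted p = 0.392), named after its value was seen.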

How the data were processed

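The authors deposited 1 table of TPM per gene for 6 libraries, 3 of PTC-028 and 3 of DMSO. GRCh38 is the build named per the submitters' processing notes. How reads were aligned and quantified, on which annotation and whether by strand, is not given in the sources used here. Depth is unknown. The labels do not say whether replicates were separate cultures, so a p-value covers the spread of these libraries alone, which may be technical.

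Rows that reached 1 TPM in 3 or more libraries (13836 of 23555) were tested with limma 3.58.1 (R 4.3.3) on log2(TPM + 1). Treatment was the sole term, the variance had a trend, tests were 2-sided, and p-values were adjusted by Benjamini-Hochberg across the whole tested table. This scale understates changes of low genes. The procedure was tested on simulated data, where 50% of 1.5-fold changes and 80% of 2-fold changes were called. Smaller changes were not simulated, and the largest change among the motors, that of KIF20A, was 1.27-fold. A motor that did not pass is therefore not shown to be unchanged. Coordinates are from GENCODE 29, and promoters from RefSeq. A symbol with several rows was read from the one with the highest mean.

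All 10 motors and the other mitotic kinesins are named. Of each further list, up to 4 passing genes with the smallest p are named, or 2 where fewer than 2 passed, and for a motor that passed its 3 nearest profiles. The members and lists were chosen with earlier results of these data known. Alternatives were other pseudocounts, filters, scalings, variance models, library weights, summed rows, a replicate block and leaving out each library.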

Additional observations from a re-analysis of the deposited data

How the results depend on the processing

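With all libraries 260 genes and 1 motor passed. With no filter on low values 138 genes passed, without a variance trend 131, and with library weights 2219, while leaving out 1 library gave 74 to 226. The motors that passed were 0 without a variance trend (KIF20A adjusted p = 0.0887), 2 with library weights (KIF20A and KIF15) and 0 to 1 with 1 library left out. It stayed at 1 with other pseudocounts, with either filter, under both scalings, with mitochondrial genes removed, with robust eBayes and with summed rows. With the replicate number as a block, 62 genes and 0 motors passed (KIF20A adjusted p = 0.125), with 9 G1/S genes and 1 regulator lower and E2F1 past the threshold no longer (adjusted p = 0.0561). Libraries of the same number did not deviate together, with correlations of 0.0298, -0.0262 and -0.0975, so the numbers were not taken as pairs; 1 of 6 libraries correlated best with their own number. The sign of KIF20B turned under quantile normalisation (-0.030), library weights (-0.0049) and the removal of DMSO replicate 3 or PTC-028 replicate 2, in a range of -0.078 to 0.129 with 1 library left out. That of KIF18B turned with library weights (0.044). That of KIF2A turned under median ratio scaling (-0.024), library weights (-0.121) and the removal of DMSO or PTC-028 replicate 3, where the range with 1 library left out was -0.111 to 0.0941. The cause was not tested. The log2 ratio of KIF20A to KIF20B stayed between 0.22 and 0.42 without 1 library. The share of KIF20A was the same with summed rows. TPM holds no depth, so counting error could not be separated from the spread between libraries.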

Other observations

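Kinesins of transport and other roles had 33 rows, of which 28 were tested. By limma 0 of the 28 passed, and 4 had an unadjusted p under 0.05, against 17.3% of all genes tested. On the log2 scale 21 were above 0, a count with no share of all genes to set beside it. Their median fold change was 0.11, against 0.03 over all genes tested. KIF5A, a neuronal transport motor, had 14.9, 15.4 and 14.1 TPM with PTC-028, against 10.5, 12.7 and 10.4 TPM with DMSO, without overlap (0.38; limma adjusted p = 0.126). KIF1A, which carries synaptic vesicle precursors along axons, had 157, 156 and 160 TPM with PTC-028, against 138, 151 and 139 TPM with DMSO (0.15; 0.199). Both passed with library weights (adjusted p = 0.0106 for KIF5A and 0.0177 for KIF1A), in ranges over the alternatives that reached 0.318 and 0.442. The most abundant motor of this list was KIF21A, at a mean of 196 TPM.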
